A study of Mus musculus with 30 samples.

Results

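The comparison described here asks how bone marrow stem and progenitor cells of one leukaemia-prone genotype differed when the mutagen ENU had been given. It sets 3 LSK libraries labelled EAP with ENU against 3 labelled EAP without ENU, 6 of the 30 libraries in the series, chosen by their labels alone. LSK cells are sorted as negative for lineage markers and positive for Sca1 and Kit, and hold the blood stem cells and multipotent progenitors. EAP stands for Egr1+/-, Apc del/+ and a short hairpin RNA (shRNA) against Trp53: marrow of C57BL/6 mice lacking 1 copy of Egr1 and 1 of Apc was transduced with the shRNA and transplanted into wild type recipients. Both groups carry all 3 changes, and the sort took place about 2 months after the transplant, ahead of myeloid disease. In the ENU group both the donor and the recipient had received ENU; the other group had none. Dose and timing for these mice, the number of mice behind a library, their age and sex, the driver of the Apc deletion and any sort on donor origin or on the shRNA vector are not stated in the labels, so cells of the recipient can be among those sorted. The remaining 6 LSK libraries, used here as the level without the EAP changes, were 3 from untransplanted wild type (WT) mice and 3 from WT marrow transduced with a luciferase shRNA and transplanted (transplanted WT), none with ENU. One label goes against the rest: the transplant field of EAP 1 names wild type marrow, while its title, genotype and shRNA fields name EAP.

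ENU, N-ethyl-N-nitrosourea, is an alkylating agent that transfers ethyl groups to DNA bases; an ethylated guanine can then pair with thymine at replication and leave a point mutation. Cells remove such lesions by direct reversal, for which Mgmt is the enzyme, and by base excision, nucleotide excision and mismatch repair, and the p53 protein switches on target genes such as Cdkn1a when DNA is damaged. Egr1, an immediate early transcription factor, and Apc, a brake on Wnt signalling, are counterparts of human genes often lost together in myeloid neoplasms that follow cytotoxic therapy. The values below come from RNA of cells sorted about 2 months after the transplant and count no mutations.

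Values are the authors' normalised expression signal per gene. The depth of these libraries is unknown, since the table gives no counts and its low values showed no step worth 1 read. The libraries within EAP were far less alike than those with ENU. Across genes, Pearson's r of log2(value + 1) was 0.982 to 0.985 between the 3 ENU libraries and 0.860 to 0.953 between the 3 EAP libraries, and EAP 3 correlated with the ENU libraries (0.974 to 0.983) more closely than with EAP 1 (0.897) or EAP 2 (0.953). Over 8344 genes with a mean of at least 10, the median standard deviation on the log2 scale was 0.595 within EAP and 0.139 within EAP with ENU. EAP 1 stood apart on the first principal component together with WT 2 and transplanted WT 3, and EAP 2 stood apart alone on the third. Genes listed at 0 numbered 279 in EAP 1, 178 in EAP 2 and 38 in EAP 3, against 20 to 54 in the ENU libraries. Results are therefore also given without EAP 1 and without EAP 2 for many of the lists and genes, though not for every one that moved. Nothing in the labels says which libraries come from separate mice, so the spread between them may be technical in part.

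**Figure D1:**
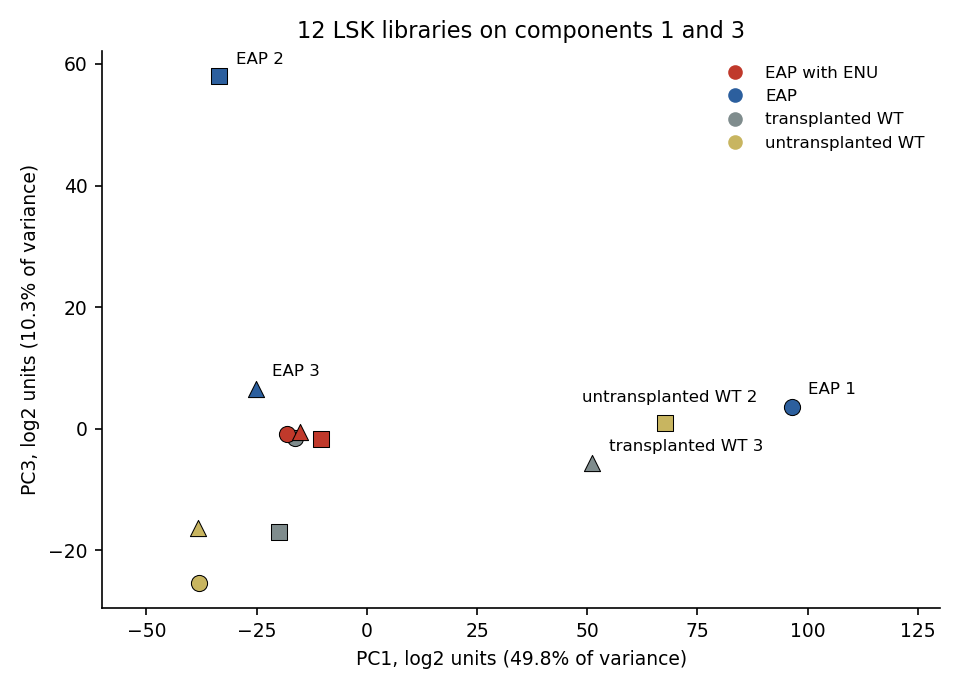
Position of the 12 LSK libraries on principal components 1 (x axis, 49.8% of the variance) and 3 (y axis, 10.3%), in log2 units; colour gives the group and symbol the replicate (circle 1, square 2, triangle 3). The 3 ENU libraries lie together near the centre, while EAP 1 lies at 96.4 on component 1 and EAP 2 at 58.0 on component 3.

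All 8 LSK marker genes were detected in every library, and their summed value was 2445 to 2825 in EAP and 2455 to 2674 in EAP with ENU. Kit itself was 65.3 in EAP 1 against 348 and 283 in EAP 2 and 3, and 237, 215 and 239 with ENU. Of the markers of cells that the sort should remove, only Pecam1, which stem cells also express, was analysed here out of the 8 genes of the stromal and endothelial set. The B cell markers Ms4a1, Cd22 and Pax5 were among those not analysed here. Summed values were 75.9 to 293 in EAP and 84.7 to 103 with ENU for B cell markers (6 of 10 present), 5.17 to 61.1 and 16.8 to 28.1 for late neutrophil markers (6 of 8), and 50.1 to 157 and 111 to 123 for erythroid markers (7 of 8). The groups overlapped for these 3 sets. The Y-linked genes Ddx3y, Eif2s3y, Kdm5d and Uty summed to 55.4 to 82.5 in EAP and 124 to 140 with ENU, without overlap. In wild type the sum ran from 0.0415 to 184. WT 2 stood at 0.0415 in Ddx3y and at 0 in Eif2s3y, Kdm5d and Uty, and it is included in the wild type ranges and in the test. The part of Y-linked genes in the results was not tested.

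The engineered genes overlapped between the groups. Trp53, the target of the shRNA, stood at 70.6, 173 and 76.1 with ENU and 65.5, 132 and 106 in EAP, all below the 213 to 370.4 of the 6 wild type libraries. The difference of 0.0057 ± 0.38 on the log2 scale had no stable direction: it was -0.27 without EAP 1 and -0.00367 after median-of-ratios rescaling. Egr1 stood at 308, 57.7 and 77.4 with ENU and 75.04, 840.5 and 329 in EAP, with EAP 1 at the low end and EAP 2 the highest of the 6 (-1.30 ± 0.77). Apc stood at 7.79, 6.51 and 7.21 and 5.41, 8.82 and 10.99 (-0.16 ± 0.40), and 0.040 without EAP 3.

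No gene passed the test. Of 11730 genes tested, 0 (0%) had an adjusted p under 0.05 (limma across all 12 LSK libraries, Benjamini-Hochberg), and the smallest adjusted p was 0.696. An unadjusted p under 0.05 was reached by 617 genes (5.26%), 350 of them higher with ENU (2.98%) and 267 lower (2.28%). All 3 ENU libraries lay above all 3 EAP libraries at 783 genes (6.68%) and below them at 702 (5.98%). Without EAP 1 they lay above both EAP libraries left at 2401 genes (20.5%) and below at 2420 (20.6%), and without EAP 2 at 1236 (10.5%) and 1060 (9.04%). Of the 783, 232 (29.6%) also lay above all 6 wild type libraries; of the 702, 152 (21.7%) also lay below them. Without EAP 1 and the wild type libraries WT 2 and transplanted WT 3, 3081 genes reached an unadjusted p under 0.05. There 1 gene passed, Zmat5, a component of the minor spliceosome (log2 5.22, limma adjusted p = 0.0484). That pass rests on values near 0 in EAP 2 (1.76e-06) and EAP 3 (3.84e-06), with the 9.78 of EAP 1 left out. WT 3, without ENU, was also low, at 3.23. Every gene described below is therefore given as a measured value and not as a call: the adjusted p of the 102 genes chosen for description ran from 0.696 to 0.998 (limma). Differences are EAP with ENU minus EAP on the log2(value + 1) scale ± the standard error from limma, with n = 3 libraries in each group. That scale understates the difference of low genes. The standard error uses 1 spread per gene shared by all 12 LSK libraries, wild type included. It takes no account of the unequal median standard deviations, 0.595 within EAP and 0.139 within EAP with ENU. The p values and the 0 passing genes carry the same limit.

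**Figure D2:**
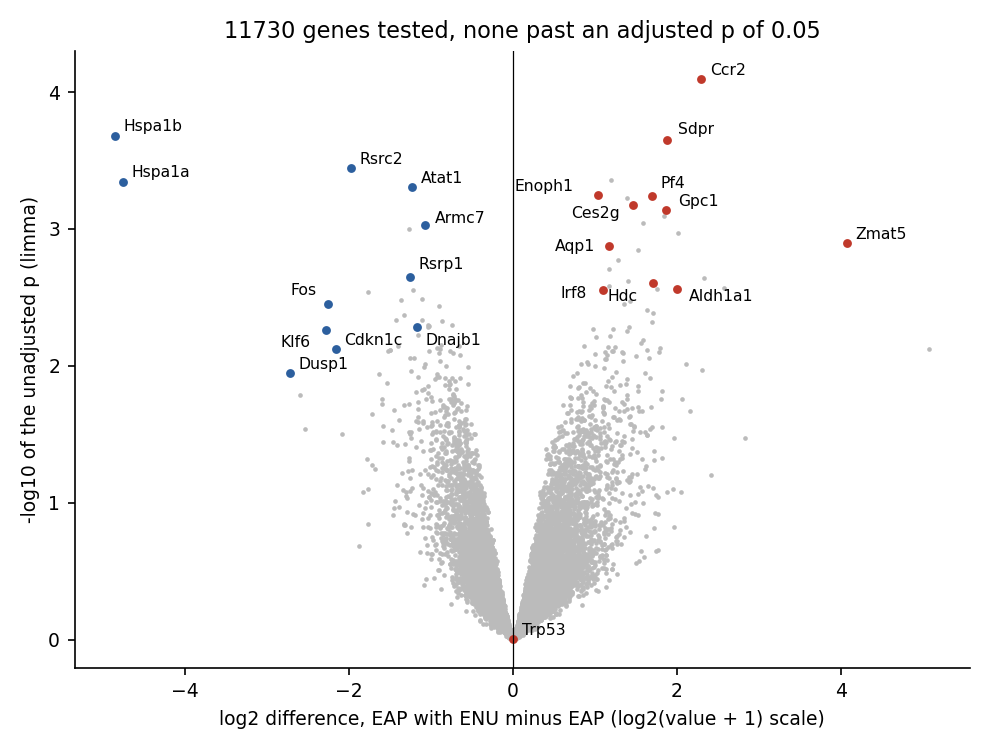
Each point is 1 of 11730 genes, with the log2 difference (EAP with ENU minus EAP) on the x axis and -log10 of the unadjusted limma p on the y axis; red and blue points are named genes higher and lower with ENU. Hspa1a and Hspa1b lie farthest to the left, at -4.76 and -4.85, Ccr2 has the smallest p, and no gene passes after adjustment.

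The widest difference among the named genes was in the inducible heat shock genes. Hspa1a and Hspa1b encode near-identical inducible Hsp70 chaperones, which refold proteins under stress and are transcribed through heat shock factor 1 bound to inverted nGAAn repeats. Because both lie side by side on chromosome 17 (Hspa1a at 34969359 to 34972156 and Hspa1b at 34956429 to 34959238, GRCm38.p6, RefSeq) and share most of their sequence, reads could be split between them, and their sum is given as well. The 250 bases before each RefSeq start are shown, 5′ to 3′, because both genes had low values together and hold the same element; the capitals mark the match to GAANNTTC, a pair of facing heat shock units, 104 bases before the start. The windows are chr17:34972157-34972406 and chr17:34959239-34959488, both on the minus strand of GRCm38.p6.
Hspa1a: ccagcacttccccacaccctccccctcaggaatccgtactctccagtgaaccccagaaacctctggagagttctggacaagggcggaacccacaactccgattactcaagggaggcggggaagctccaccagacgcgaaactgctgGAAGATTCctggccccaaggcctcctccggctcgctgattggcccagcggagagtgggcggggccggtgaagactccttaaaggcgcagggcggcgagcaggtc
Hspa1b: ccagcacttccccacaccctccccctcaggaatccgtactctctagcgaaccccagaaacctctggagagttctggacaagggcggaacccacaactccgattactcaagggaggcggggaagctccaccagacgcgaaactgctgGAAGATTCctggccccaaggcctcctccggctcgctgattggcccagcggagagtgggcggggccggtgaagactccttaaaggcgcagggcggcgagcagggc
The windows differ at 3 of 250 positions. GAANNTTC reads the same on both strands and was found in 2199 of 32851 RefSeq promoter windows of this length (6.69%), so the match describes the sequence and shows no binding.

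Hspa1b stood at 24.7, 53.7 and 3.28 in EAP with ENU 1 to 3 and at 244, 805 and 729 in EAP 1 to 3, a difference of -4.85 ± 0.91. The lowest EAP library was above the highest wild type library (29.1 to 139 over the 6), and ENU 1 and 3 were below the lowest. Hspa1a stood at 15.3, 33.7 and 1.41 with ENU and 132, 444 and 453 in EAP (-4.76 ± 0.98), against 14.5 to 94.5 in wild type. Summed, the pair gave 39.99, 87.4 and 4.69 with ENU, and 376, 1249 and 1182 in EAP, with no overlap between the groups. The difference kept its direction and was of similar size without EAP 1 (-5.40 for Hspa1b), without EAP 2 (-4.54) and against EAP 3 alone (-5.33).

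Other members of the chaperone system did not share that size. Dnajb1, the Hsp40 partner that loads substrates onto Hsp70, stood at 189.9, 129 and 122 with ENU and 395, 311 and 281 in EAP, separated, with 141 to 359 in wild type (-1.17 ± 0.34). Hsf1, the heat shock transcription factor, stood at 14.6, 12.2 and 9.45 and 29.4, 46.9 and 15.3 (-1.15 ± 0.43), also without overlap. Of 30 chaperone genes measured, 5 (16.7%, against 5.98% of all genes) had all 3 ENU libraries below all EAP libraries: Hspa1a, Hspa1b, Dnajb1, Dnajb4 and Hsf1. In the opposite direction 4 (13.3%, against 6.68%) had all ENU libraries above: the cytosolic chaperones Hspa4 and Dnaja2, and the mitochondrial chaperones Hspa9 and Hspd1. The median over the 30 was 0.10, beside 0.03 over all genes, so the list as a whole was centred near 0, and none of its members passed. Without EAP 1, 5 of the 30 lay below, where 20.6% of all genes did, and 12 lay above, where 20.5% did. Their share of the summed signal was 0.936%, 1.18% and 1.01% with ENU and 0.948%, 1.13% and 1.16% in EAP (exact permutation test, two-sided p = 0.9).

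**Figure D3:**
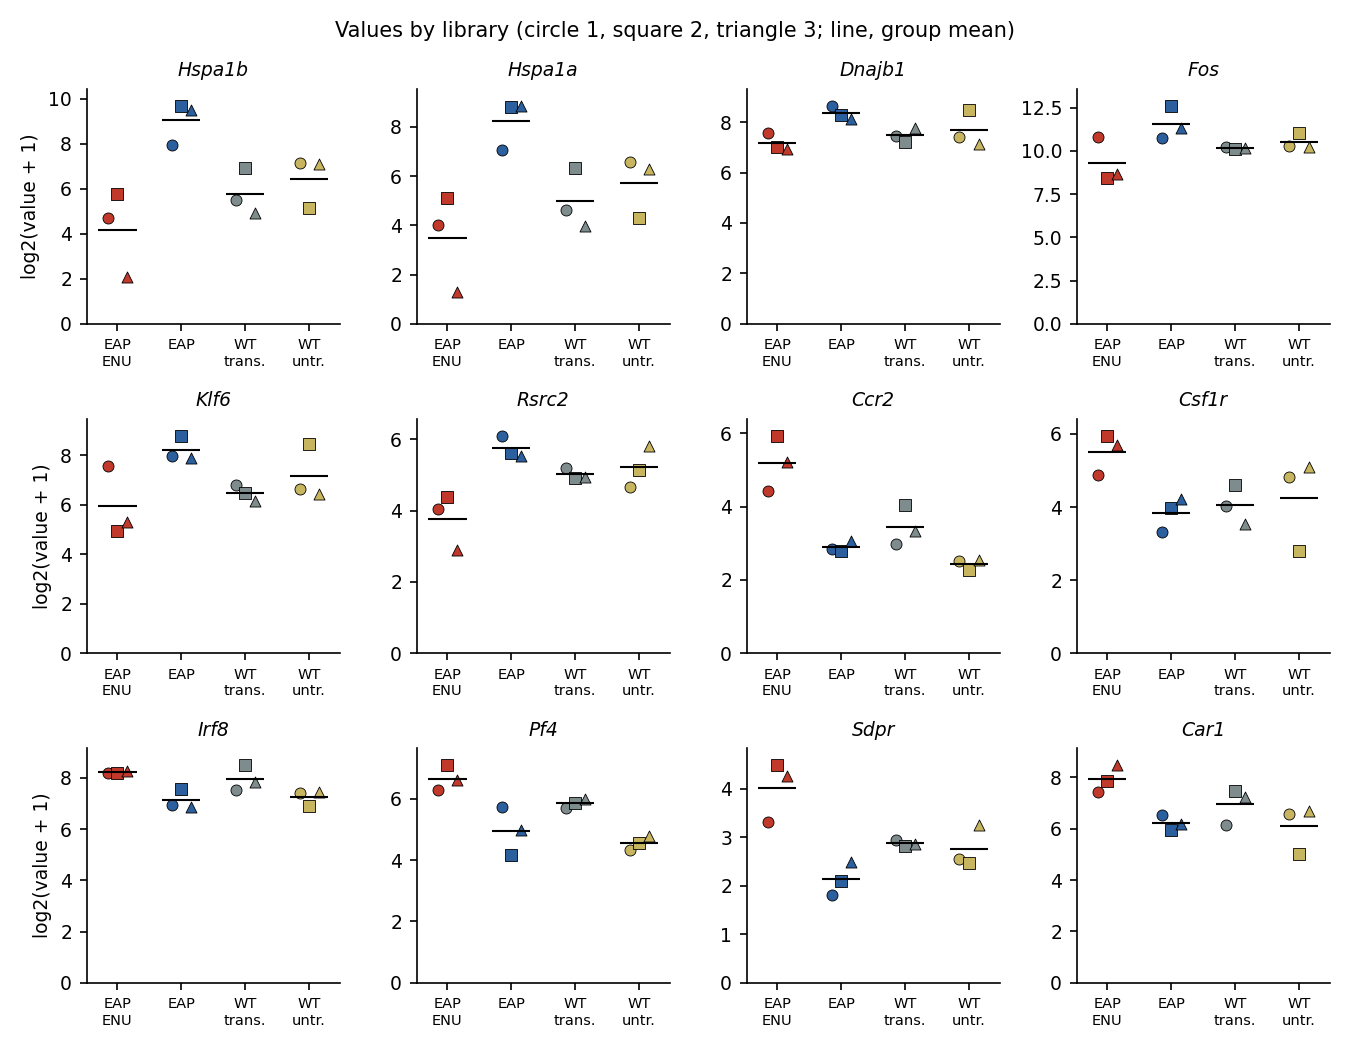
Values of 12 genes on the log2(value + 1) scale (y axis, from 0) in the 4 LSK groups (x axis); circles, squares and triangles are replicates 1, 2 and 3 and lines are group means. Hspa1a and Hspa1b are high in all 3 EAP libraries, ENU 1 lies near the EAP libraries for Fos and Klf6, and Ccr2, Csf1r, Pf4, Sdpr and Car1 have their highest group mean with ENU.

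Immediate early genes, which are transcribed within minutes of a growth or stress signal without new protein synthesis, had, among the 6 libraries, their lowest list means in ENU 2, EAP 1 and ENU 3 and their highest in EAP 2 and ENU 1. Fos, the AP-1 subunit, stood at 1747, 337 and 409 with ENU and 1696, 6064 and 2557 in EAP (-2.25 ± 0.62), and ENU 1 lay above EAP 1. Klf6, a zinc finger transcription factor, stood at 186, 29.8 and 38.2 and 251, 438 and 233 (-2.28 ± 0.67). Dusp1, a phosphatase that switches off MAP kinases, stood at 871, 191 and 236 and 3377, 3132 and 1058 (-2.71 ± 0.90). Klf6 and Dusp1 did not overlap between the groups, but ENU 1 came close to the lowest EAP library in both. Btg2, an antiproliferative p53 target, stood at 138, 44.2 and 64.97 and 149, 279.7 and 166, with 111 to 143 in wild type (-1.36 ± 0.37). Ppp1r15a, which recruits a phosphatase to eIF2alpha after stress, stood at 344, 123 and 123 and 443, 1078 and 306 (-1.60 ± 0.58). Over the 38 immediate early genes measured, 10 were lower at an unadjusted p under 0.05 (2.28% of all genes were) and none higher, yet only 3 had groups without overlap: Klf6, Dusp1 and Btg2 (7.89%, against 5.98%). Without EAP 1, 15 of the 38 lay below, where 20.6% of all genes did. The list median was -0.24, and it was -0.64 without EAP 1 and 0.13 without EAP 2. Their share of the summed signal was 1.17%, 0.392% and 0.465% with ENU and 0.730%, 3.13% and 1.26% in EAP (exact permutation test, two-sided p = 0.2, smallest possible 0.1), so EAP 2 was highest and ENU 1 was above EAP 1.

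Other genes of small p had values below EAP. Rsrc2, an arginine-serine-rich protein, stood at 15.5, 19.9 and 6.44 with ENU and 67.3, 47.96 and 45.2 in EAP, and all 3 ENU libraries lay below the 24.4 to 55.7 of wild type (-1.97 ± 0.39). Rsrp1, another arginine-serine-rich protein, stood at 744, 697 and 649 and 1315, 2692 and 1286 (-1.25 ± 0.32), and Prpf39, a splicing factor of the U1 particle, at 47.4, 42.7 and 42.1 and 111, 127 and 63.1 (-1.11 ± 0.32). For all 3 the ENU libraries lay below the 6 wild type libraries as well as below EAP. Atat1, the alpha-tubulin acetyltransferase, stood at 16.8, 11.2 and 14.8 and 32.7, 45.7 and 27.02 (-1.23 ± 0.26), and wild type, at 17.3 to 31.3, lay wholly above the ENU libraries. Armc7 stood at 19.8, 18.1 and 16.2 and 47.5, 41.5 and 29.9 (-1.07 ± 0.24), with wild type at 24.6 to 40.9. Mmp2, a gelatinase, stood at 3.13, 2.88 and 3.06 and 7.07, 9.67 and 6.63 (-1.11 ± 0.30), and untransplanted wild type reached 15.4 to 28.8. Asb13, Ddhd2, Kbtbd2, Rsc1a1 and Sap25 completed the 15 genes of smallest p in this direction, with differences of -0.90, -0.86, -0.75, -1.43 and -1.76. None of the 5 overlapped between the groups.

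On the higher side, Ccr2 and other monocyte genes stood out by rank of p or by the number separated. Ccr2, the chemokine receptor by which inflammatory monocytes leave the marrow, stood at 20.7, 59.99 and 36.2 with ENU and 6.15, 5.88 and 7.43 in EAP, a difference of 2.30 ± 0.38; it had the smallest p of the table. Every ENU library exceeded the wild type range of 3.80 to 15.5. Csf1r, the receptor for macrophage colony-stimulating factor, stood at 28.4, 60.7 and 50.8 and 9.01, 14.8 and 17.6, with 5.95 to 33.01 in wild type (1.67 ± 0.56). Irf8, the transcription factor that directs progenitors to monocytes and dendritic cells, stood at 289.8, 290.4 and 303 and 121, 188 and 115 (1.09 ± 0.29), while transplanted WT reached 357. The ENU libraries were close to each other in Irf8 and widely spread in Ccr2. Ly86, a partner of a Toll-like receptor homologue, stood at 39.4, 76.1 and 61.3 and 41.2, 3.32 and 12.4 (2.10 ± 0.68), and EAP 1 lay above ENU 1. Ctss, the lysosomal protease cathepsin S, stood at 71.4, 84.7 and 83.1 and 65.03, 44.9 and 44.6 (0.64 ± 0.25). Of 20 monocyte and macrophage genes, 6 (30%, against 6.68%) lay wholly above EAP, Csf1r, Ccr2, Cx3cr1, C1qa, Vcam1 and Ctss, and 0 below, with a median of 0.62 (0.42 without EAP 2) and 0 past the threshold. Without EAP 1, 13 of the 20 lay above, where 20.5% of all genes did. The list mean on the log2(value + 1) scale was 4.302, 4.644 and 4.561 with ENU and 4.306, 3.191 and 3.738 in EAP, so EAP 1 lay level with ENU 1. Summed over the list, values ran from 1277 to 1471 with ENU and from 617 to 2922 in EAP, overlapping. The macrophage markers in the sort check (5 of 6 present) summed to 42.1 to 76.3 with ENU, 20.2 to 23.2 in EAP and 33.0 to 59.4 in wild type. Csf1r, at the values above, made up most of that sum in the ENU libraries. C1qa was low, at 1.38, 1.89 and 1.59 with ENU and 1.23, 0 and 0.977 in EAP, and 1.34 to 4.74 in wild type. Its partners C1qb and C1qc overlapped between the groups. C1qb stood at 5.76, 4.76 and 2.03 with ENU and 5.51, 2.20 and 2.44 in EAP, and C1qc at 3.88, 7.04 and 3.05 and 3.88, 1.78 and 0.885. The part of macrophages in these differences was not tested. In bulk RNA, more cells of a type and more RNA per cell cannot be told apart.

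The list of myeloid progenitor and granule genes had mostly positive differences with few separated members. Plac8 stood at 2739, 3406 and 3016 with ENU and 2349, 748 and 1634 in EAP, with 1179 to 2341 in wild type (1.10 ± 0.41). Cst7, an inhibitor of granule cathepsins, stood at 142, 226 and 175 and 83.4, 44.1 and 101 (1.29 ± 0.50). Ctsg, the granule protease cathepsin G, stood at 626, 960.0 and 944 and 757, 213 and 308 (1.17 ± 0.47), and EAP 1 lay above ENU 1. All 6 EAP libraries exceeded the 35.2 to 92.6 of untransplanted wild type in Ctsg, whereas transplanted WT was 267 to 368. Trem3, a myeloid activating receptor, stood at 16.2, 34.5 and 19.8 and 18.1, 2.12 and 3.93 (1.81 ± 0.65). Of the 23 genes measured on the list 21 had a positive difference. Wholly above EAP lay 4 (17.4%, against 6.68% of all genes), Plac8, Cst7, Cebpa and Calr, and 0 lay below. Of these 4, Cebpa encodes a transcription factor and Calr a chaperone of the endoplasmic reticulum, not granule proteins. The list median was 0.50, and 1.03 without EAP 1, where 16 lay above (20.5% of all genes did), and 0.20 without EAP 2. EAP 1 had the highest list mean of the 6 libraries, at 7.57 on the log2(value + 1) scale, against 7.30, 7.56 and 7.52 with ENU. Summed over the list, values ran from 14844 to 19025.5 with ENU and from 5961 to 25854 in EAP, overlapping. Cebpa, the transcription factor required for granulocyte progenitors, stood at 22.9, 26.8 and 25.8 and 4.56, 12.02 and 19.1, with 3.85 to 16.6 in wild type (1.20 ± 0.61).

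Megakaryocyte genes had more members wholly above EAP than wholly below. Pf4, platelet factor 4, stood at 76.5, 135 and 95.8 with ENU and 52.4, 16.9 and 30.5 in EAP (1.69 ± 0.36); all ENU libraries lay above the 19.1 to 63.1 of wild type. Sdpr (Cavin2), a coat protein of caveolae that platelets carry, stood at 8.89, 21.3 and 18.1 and 2.52, 3.27 and 4.61, with 4.55 to 8.53 in wild type (1.88 ± 0.36). Itgb3, the beta chain of the platelet fibrinogen receptor, stood at 6.66, 13.95 and 10.8 and 0.839, 2.31 and 6.05 (1.66 ± 0.53). Gp1bb, a chain of the receptor for von Willebrand factor, stood at 9.81, 13.6 and 9.50 and 7.69, 1.15 and 3.30 (1.46 ± 0.54). All 4 were separated between the groups. Of 27 megakaryocyte and platelet genes 8 (29.6%) lay wholly above EAP and 2 (7.41%) below, among them Ppbp, a platelet chemokine, with a median of 0.32. Against EAP 3 alone that median was 0.08.

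Genes of mast cells, basophils and eosinophils had a list median of 0.69, which was 0.88 without EAP 1 and 0.34 without EAP 2. The list was not higher with ENU throughout. Its mean on the log2(value + 1) scale was 3.69, 3.60 and 3.65 with ENU and 3.97, 2.65 and 2.80 in EAP. EAP 1 thus lay above all 3 ENU libraries. Hdc, which makes histamine, stood at 26.3, 33.2 and 32.5 with ENU and 15.01, 7.49 and 5.59 in EAP (1.71 ± 0.44). Ms4a2, a chain of the high-affinity IgE receptor, stood at 6.21, 7.47 and 6.64 and 2.81, 1.960 and 1.74 (1.31 ± 0.45). Siglecf, a lectin of eosinophils, stood at 16.8, 19.3 and 20.4 and 1.48, 12.9 and 9.36 (1.47 ± 0.58). These 3 were the members, of 16 measured (18.8%, against 6.68% of all genes), that lay wholly above EAP. Cyp11a1, which makes pregnenolone, lay wholly below (6.25%, against 5.98%), and transplanted WT 3 reached 33.6 in Hdc. Of the erythroid genes, Car1, the early erythroid carbonic anhydrase, stood at 173, 232 and 354 with ENU and 90.7, 60.9 and 71.4 in EAP (1.71 ± 0.48), with wild type at 31.4 to 178. Aqp1, a water channel of red cells, stood at 29.8, 32.7 and 45.98 and 16.04, 17.6 and 12.4 (1.17 ± 0.28), and Blvrb, a biliverdin reductase, at 41.3, 43.1 and 45.8 and 33.2, 14.96 and 26.3 (0.85 ± 0.31). Ermap stood at 5.55, 5.31 and 7.23 and 2.05, 3.93 and 3.05 (0.83 ± 0.31). Of 22 erythroid genes 6 (27.3%) lay wholly above EAP, these 4 with Epor and Tspan33, and 0 below, with a median of 0.48. The haemoglobin share of the signal was 0.00713%, 0.00736% and 0.00637% with ENU and 0.00715%, 0.00305% and 0.0123% in EAP (exact permutation test, two-sided p = 0.8), and the groups overlapped.

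T and NK cell genes, which the lineage sort should remove, had a list mean of 2.75, 2.14 and 2.45 on the log2(value + 1) scale with ENU and of 2.10, 1.92 and 1.88 in EAP, with 2.09 to 3.49 in wild type. Of 27 measured, 8 (29.6%, against 6.68%) lay wholly above EAP, Cd3g, Cd8b1, Cd5, Cd28, Klrd1, Prf1, Ccl5 and Txk. Lat alone lay wholly below (3.7%, against 5.98%), and the median was 0.53. Lat stood at 84.3, 65.95 and 79.2 with ENU and 219, 125 and 90.3 in EAP (-0.82 ± 0.41). Lck, overlapping, stood at 73.1, 43.5 and 41.7 and 120, 77.2 and 55.95 (-0.64 ± 0.35). Summed over the list, values ran from 1043 to 1234.5 with ENU and from 725 to 2291 in EAP, overlapping. Ccl5, a chemokine of cytotoxic cells, stood at 20.1, 12.6 and 14.95 with ENU and 8.13, 2 and 8.89 in EAP (1.36 ± 0.51). Klrd1, a chain of NK receptors, stood at 7.47, 3.63 and 4.28 and 0.466, 1.43 and 2.06 (1.42 ± 0.69). The 8 sort-check markers of T and NK cells summed to 12.4 to 25 with ENU and 8.52 to 14.1 in EAP, overlapping, and to 6.35 to 56.0 in wild type. Transplanted WT 2, at 56.0, was the highest library without any ENU. Among B cell and dendritic genes the order was mixed. Cd72, a B cell inhibitory receptor, stood at 142, 107 and 122 with ENU and 332, 267 and 150.2 in EAP (-0.94 ± 0.38). Jchain, which joins antibody units, stood at 220.3, 140.4 and 250.4 and 679, 1236 and 305, without overlap (-1.68 ± 0.79). Transplanted WT, at 199.7, 699 and 853, spanned both groups, and untransplanted wild type had 7.14 to 57.1. H2-Ob, an MHC class II chaperone subunit, stood at 93.3, 36.1 and 69.9 and 103, 125 and 97.6 (-0.79 ± 0.30), and Siglech, a lectin of plasmacytoid dendritic cells, at 29.6, 6.14 and 12.6 and 2.03, 6.70 and 3.21 (1.64 ± 0.67). Siglech overlapped between the groups and was 74.8 in transplanted WT 2.

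**Figure D4:**
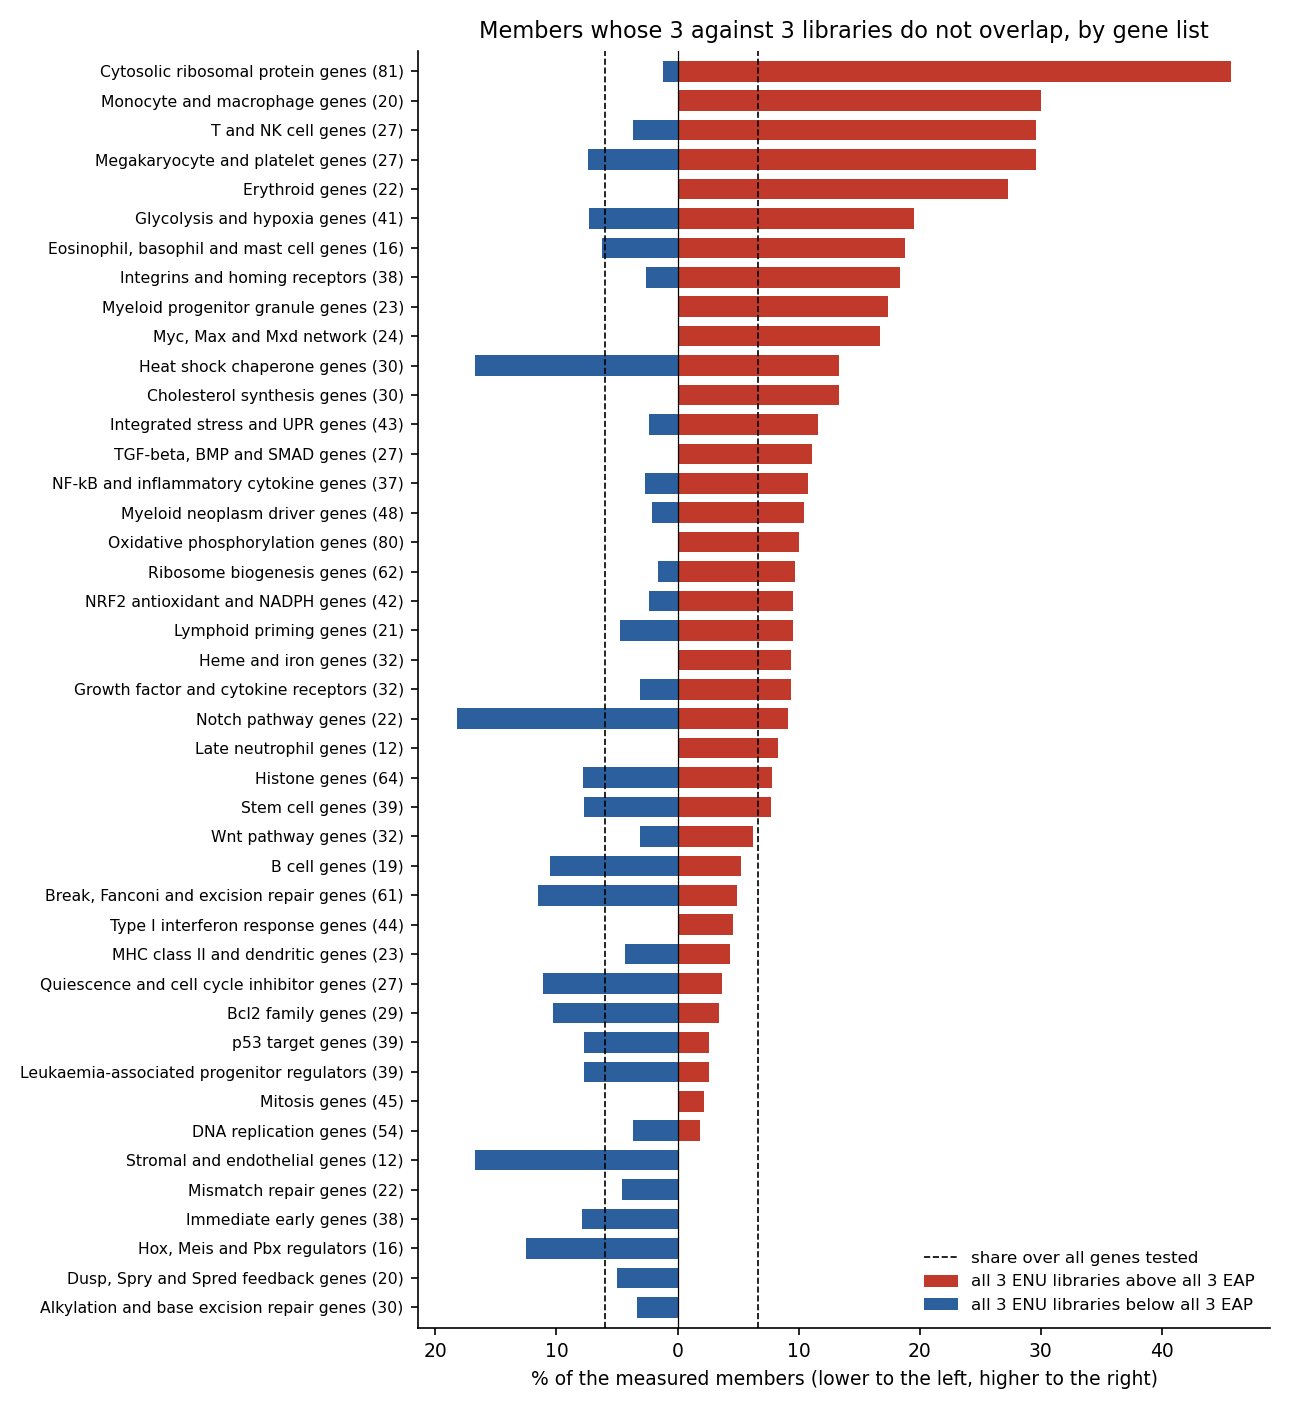
For each of 43 gene lists (measured members in brackets), bars give the percentage of members with all 3 ENU libraries above all 3 EAP libraries (red, right) or below them (blue, left); dashed lines are the shares over all 11730 genes, 6.68% and 5.98%. Ribosomal protein, monocyte, T and NK, megakaryocyte and erythroid genes extend farthest to the right, and Notch, heat shock and stromal genes farthest to the left.

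Among the 43 lists, 26 had a share above 6.68% in the higher direction and 16 a share above 5.98% in the lower one, 7 of them both. The list median had the opposite sign without EAP 1 in 12 of the 43 lists and without EAP 2 in 8. Cytosolic ribosomal protein genes had the highest share. Rpl10 stood at 1002, 1095 and 1086 with ENU and 476, 279 and 785 in EAP (1.17 ± 0.43). Rpl27a stood at 248, 242 and 256 and 104, 63.2 and 184 (1.21 ± 0.41), and Rpl39 at 243, 327 and 279 and 105, 59.1 and 196 (1.39 ± 0.49). In all 3, EAP 2 was the lowest library and EAP 3 came nearest to the ENU libraries. Of 81 ribosomal protein genes 37 (45.7%) lay wholly above EAP and 1 (1.23%) below, the paralogue Rpl22l1, 79 had a positive difference and 0 passed. Without EAP 1, 71 of the 81 lay above (20.5% of all genes did), and without EAP 2 still 37 (10.5% of all genes did). The median was 0.71, but 0.20 without EAP 2 and 0.30 against EAP 3 alone. As a share of the summed signal they took 5.99%, 6.26% and 6.27% with ENU, 4.14%, 2.18% and 5.54% in EAP, and 3.67% to 6.16% in wild type; the groups did not overlap, and the exact permutation test gave a two-sided p = 0.1, the smallest that 3 against 3 allows. Ribosomal protein genes have many processed pseudogenes, between which reads could be split. Genes of oxidative phosphorylation had a similar dependence: 8 of 80 (10%) lay wholly above EAP, 60 were positive, and the median of 0.26 became 0.78 without EAP 1, where 69 of the 80 lay above EAP (20.5% of all genes did), and -0.21 without EAP 2, where 8 did. Atp5g2 and Atp5g3, which encode the same subunit of ATP synthase, stood at 385, 412 and 371 and at 719, 949 and 762 with ENU, and at 171, 104 and 312 and at 565, 262 and 605 in EAP (1.13 ± 0.39 and 0.84 ± 0.32).

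**Figure D5:**
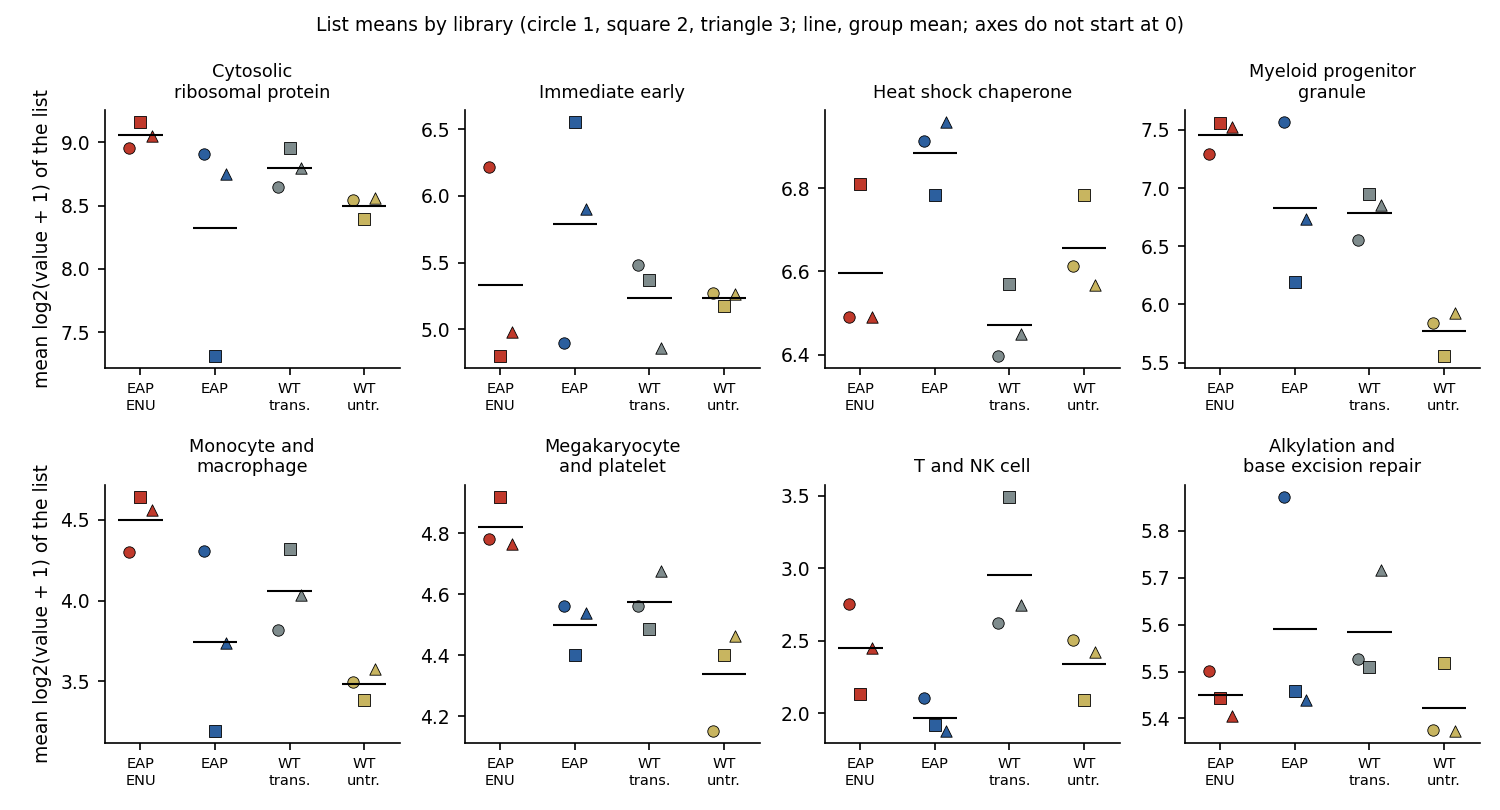
Mean log2(value + 1) of the measured members of 8 gene lists (y axes, which do not start at 0) in each of the 12 LSK libraries, by group (x axis); symbols are replicates and lines group means. EAP 2 lies far below the other libraries for ribosomal protein genes, ENU 1 lies with the EAP libraries for immediate early genes, and the alkylation repair list overlaps throughout.

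Genes that deal with alkylated DNA were not set apart. Mgmt, which lifts alkyl groups from guanine, stood at 31.1, 25.8 and 28.03 with ENU and 35.8, 6.44 and 38.3 in EAP, with 28.9 to 42.4 in wild type (0.41 ± 0.51; -0.38 without EAP 2), and EAP 2 was the lowest of the 12 libraries. Alkbh1, a demethylase of alkylated nucleic acids, stood at 93.2, 82.7 and 88.2 and 265, 183 and 98.2 (-0.93 ± 0.43), and EAP 3 lay close to the ENU libraries. Neil3, a glycosylase of base excision repair, stood at 50.7, 49.1 and 62.2 and 93.8, 83.2 and 60.2, overlapping (-0.53 ± 0.23). Of 30 alkylation and base excision repair genes 0 lay wholly above EAP and 1 below (3.33%), Alkbh1, with a median of -0.10. Without EAP 1 the median turned to 0.03, with 4 members above (20.5% of all genes were) and 2 below (20.6%). Without EAP 2 the median was -0.165, with 5 below (9.04% of all genes were). Among 22 mismatch repair genes none lay wholly above EAP, and the median was -0.20. Without EAP 1 that median was -0.05 and 5 members lay above, where 20.5% of all genes did. Without EAP 2 it was -0.37. In the list of break, Fanconi and nucleotide excision repair, 3 of 61 (4.92%) lay above, Ercc8, Fancf and Lig4, and 7 (11.5%) below, with a median of 0.01. Without EAP 1 that median turned to -0.15, with 18 of the 61 below (20.6% of all genes were), and without EAP 2 it was 0.08. Ercc8, which serves repair of transcribed genes, stood at 21.3, 21.5 and 20.01 with ENU and 11.95, 12.6 and 17.4 in EAP (0.56 ± 0.27), whereas Xrcc3, a recombination factor, stood at 33.4, 38.99 and 30.96 and 54.2, 65.1 and 39.8 (-0.59 ± 0.30). Both were separated, in opposite directions.

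Targets of p53 had no common direction. Cdkn1a, which arrests the cell cycle, stood at 71.6, 34.98 and 33.9 with ENU and 42.6, 36.7 and 24.1 in EAP, overlapping (0.38 ± 0.32). Mdm2, the ligase that degrades p53, stood at 60.3, 53.9 and 67.7 and 64.6, 101 and 64.8 (-0.31 ± 0.25). Ddb2, a damage sensor of nucleotide excision repair and a p53 target, stood at 28.2, 28 and 26.7 and 42.1, 82.7 and 35.6, without overlap (-0.83 ± 0.29). Over 39 p53 target genes 1 (2.56%) lay wholly above EAP, Ptp4a3, and 3 (7.69%) below, Btg2, Ddb2 and Ercc5, and the median was 0.09. In the Bcl2 family 1 of 29 lay above, Bcl2l13, and 3 (10.3%) below, of which Bcl2l14 stood at 2.04, 0 and 2.36 with ENU and 8.09, 3.70 and 4.71 in EAP (-1.53 ± 0.47). Mgmt, Cdkn1a and Mdm2 are described for their known roles in the response to alkylation and were chosen after their values were seen.

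Cell cycle genes had list medians near 0 whose sign depended on the EAP libraries kept. Ccna2, cyclin A2 of the DNA synthesis phase, stood at 132, 174 and 159 with ENU and 71.1, 100.0 and 133 in EAP, where EAP 3 and ENU 1 met (0.65 ± 0.30). Mcm7, a helicase subunit at replication origins, stood at 176, 283 and 157 and 41.3, 122 and 178, overlapping (1.03 ± 0.48), and Dut, which removes dUTP, at 181, 222 and 185 and 157, 106 and 154 (0.51 ± 0.21). Of 45 mitosis genes 1 lay wholly above EAP, Racgap1, and 0 below, with a median of -0.03, and of 54 replication genes 1 lay above, Dut, and 2 below, Chaf1b and Gins3, with a median of -0.01. Without EAP 1 the medians were 0.11 for mitosis and 0.14 for replication, with 11 of 45 and 18 of 54 members above EAP (20.5% of all genes were), and without EAP 2 they were -0.16 and -0.17. Cdkn1c, the p57 inhibitor that marks dormant stem cells, stood at 2.24, 4.82 and 0.00153 with ENU and 7.97, 10.8 and 14.9 in EAP, with 3.93 to 17.3 in wild type (-2.16 ± 0.67). Its ENU libraries lay wholly below EAP, as in 3 of 27 quiescence and inhibitor genes (11.1%), among them Btg2. For the 64 histone genes, 5 lay wholly above and 5 below (7.81% each way); many are near-identical copies between which reads could be split, and their values are uncertain. Among them Hist1h2ak stood at 6.06, 6.14 and 8.20 and 0.99, 2.83 and 3.81 (1.22 ± 0.36).

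Stem cell and homeobox regulators showed few separated members. Rbpms, an RNA-binding protein of stem cells, stood at 153, 121 and 127 with ENU and 195, 199 and 192 in EAP, with wild type at 148 to 178 (-0.55 ± 0.18). Hoxa9, which sustains self-renewal, stood at 74.1, 55.97 and 59.4 and 165, 148 and 79.5, and Hoxa10 at 28.3, 16.7 and 17.6 and 29.8, 34.8 and 33.2 (-0.98 ± 0.46 and -0.66 ± 0.25). Both were wholly below EAP and were the 2 members of 16 in that list (12.5%) to be so, with none above. The median of that list was -0.18, and it was -0.29 without EAP 1 and -0.003 without EAP 2. Of 39 stem cell genes 3 lay above, Cish, Ly6a and Mllt3, and 3 below, among them Cdkn1c and Rbpms (7.69% each), with a median of 0.12. For the lymphoid priming genes the median was 0.15, and it turned to -0.05 without EAP 1. Among lymphoid priming genes Ltb, lymphotoxin beta, stood at 76.4, 50.6 and 54.01 with ENU and 266, 84.96 and 99.01 in EAP, without overlap (-1.13 ± 0.55), and Il12a, a cytokine subunit, at 182, 117 and 140.3 and 299, 385 and 149, overlapping (-0.83 ± 0.35). Aldh1a1, which oxidises retinal, stood at 21.9, 30.7 and 35.6 with ENU and 2.05, 8.03 and 14.2 in EAP (2.00 ± 0.52); the ENU libraries exceeded the 1.95 to 12.2 of wild type. Gpc1, a cell-surface proteoglycan, stood at 21.9, 39.3 and 30.7 and 3.99, 8.11 and 12.4, and again exceeded wild type at 3.80 to 16.5 (1.86 ± 0.41).

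Receptors for adhesion and homing had 7 of 38 members (18.4%) wholly above EAP and 1 below, Itga2. Itgb2, the shared beta chain of leukocyte integrins, stood at 46.7, 40.7 and 58.5 with ENU and 13.6, 26.1 and 27.4 in EAP (1.13 ± 0.36). F2r, a thrombin receptor, stood at 113, 106 and 107 and 17.8, 53.9 and 81.8, with 24.6 to 79.9 in wild type (1.31 ± 0.56). Cxcr4, which holds stem cells in the marrow, stood at 14.9, 17.9 and 15.5 with ENU and 0.00132, 0.00113 and 12.9 in EAP (2.83 ± 1.17). Cxcr4 values near 0 also occurred in WT 2 and 3, so such values were not confined to EAP, and against EAP 3 alone the difference was 0.30. Gpr183, an oxysterol-sensing receptor that guides immune cells, stood at 4.24, 3.98 and 10.9 and 1.14, 1.28 and 1.63 (1.53 ± 0.37).

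Signalling lists differed by single members, and several list medians changed sign without EAP 1. They went from 0.20 to -0.14 for Wnt, from 0.12 to -0.26 for Notch, from 0.11 to -0.13 for TGF-beta and from 0.20 to -0.12 for inflammatory genes. Without EAP 2 these medians stayed positive. Tcf7l2, a DNA-binding partner of beta-catenin, stood at 2.38, 1.95 and 3.46 with ENU and 6.06, 13.3 and 7.11 in EAP (-1.40 ± 0.43), below every wild type library (4.95 to 20.4), while over 32 Wnt pathway genes 2 lay wholly above EAP, Ccnd2 and Tle3, and 1 below, Tcf7l2. Smad4, the common mediator of TGF-beta and BMP signals, stood at 22.7, 54.4 and 49.04 and 11.98, 22.4 and 22.7 (1.07 ± 0.44), with wild type at 8.26 to 26.5, and ENU 1 and EAP 3 nearly met. Maml2, a coactivator of Notch, stood at 4.33, 4.59 and 5.36 and 28.8, 12.6 and 6.15 (-1.31 ± 0.56). Of 22 Notch pathway genes 4 (18.2%) lay wholly below EAP, Jag2, Maml2, Rfng and Numb, and 2 (9.09%) above, among them Dtx4. Ifi44 and Gbp3, which interferon induces, stood at 38.6, 34.1 and 30.6 and 75.9, 105 and 97.7 with ENU, and at 7.12, 14.1 and 24.5 and 40.2, 53.8 and 50.03 in EAP (1.27 ± 0.49 and 0.93 ± 0.37). Those were the 2 members of 44 in the interferon list (4.55%) to lie wholly above EAP, with a list median of 0.14. Irak3, a brake on Toll-like receptor signals, stood at 18.3, 19.03 and 15.4 with ENU and 12.5, 9.10 and 4.89 in EAP (0.99 ± 0.36), and the myeloid chemokine Ccl9 at 137, 122 and 174 and 88.6, 46.8 and 67.8 (1.11 ± 0.42). With Ccl5 and Cxcl10 they were the 4 of 37 inflammatory genes (10.8%) wholly above EAP, and Ccl2 lay below. Untransplanted wild type had more Ifi44 than any ENU library, at 43.5 to 67.0.

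Metabolic and stress genes included several separated members. G6pdx, which feeds the pentose phosphate pathway, stood at 117, 141 and 135 with ENU and 69.3, 70.1 and 98.7 in EAP (0.73 ± 0.24). Slc16a1, a lactate carrier, stood at 74.1, 113 and 85.4 and 40.6, 39.7 and 65.9 (0.90 ± 0.29), and Gpi1, a glycolytic isomerase, at 471, 501 and 475 and 317, 217 and 373 (0.71 ± 0.25). All 3 were separated, with 8 of 41 glycolysis and hypoxia genes (19.5%) above EAP and 3 (7.32%) below, although the list median was 0.07. Calr, a chaperone of the endoplasmic reticulum that is mutated in myeloproliferative disease, stood at 1488, 1944 and 1702 with ENU and 642, 563 and 1243 in EAP (1.15 ± 0.47). It was 1 of 5 members wholly above EAP among 43 genes of the integrated stress and unfolded protein response (11.6%), with Canx, Phgdh, Shmt2 and Slc7a1. Ldha, lactate dehydrogenase A, stood at 1906, 2454 and 1926 and 1095, 764 and 1686 (0.89 ± 0.36). Nme2, a nucleoside diphosphate kinase, stood at 398, 459 and 406 and 350.1, 98.1 and 313 (0.93 ± 0.39), and Odc1, which starts polyamine synthesis, at 206, 230.4 and 216 and 157, 151 and 185 (0.41 ± 0.18). With Ccnd2 these were the 4 of 24 genes of the Myc network list (16.7%) wholly above EAP, with 0 below and a median of 0.09. In cholesterol synthesis 4 of 30 (13.3%) lay wholly above EAP, Cyp51, Dhcr7, Srebf1 and Stard4; Cyp51 stood at 26.5, 26.9 and 25.8 and 13.95, 15.3 and 23.8 (0.59 ± 0.24). Enoph1, an enzyme of methionine salvage, stood at 58.2, 81.2 and 60.5 and 27.2, 28.9 and 40.2 (1.04 ± 0.22); wild type, at 46.9 to 60.5, was above EAP. Kmo, which hydroxylates kynurenine, stood at 22.6, 13.6 and 15.9 and 6.80, 5.86 and 4.87, with wild type at 10.5 to 30.3 (1.41 ± 0.36). In Enoph1 and Kmo all 3 EAP libraries lay below all 6 wild type libraries, whereas the ENU libraries lay within or above their range. Ces2g, a carboxylesterase, stood at 13.97, 23.5 and 26.2 and 7.01, 5.51 and 8.01 (1.47 ± 0.32).

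The remaining genes of smallest p in the higher direction had low or widely spread values in wild type. Zmat5 stood at 30.1, 42.3 and 37.1 with ENU and at 9.78, 2e-06 and 4e-06 in EAP (4.07 ± 0.96), while the 6 wild type libraries ran from 0.95 to 64.98. Cdk11b, a cyclin-dependent kinase linked to splicing, stood at 6.32, 11.5 and 10.5 and 0.00758, 3.54 and 0.104 (2.57 ± 0.67), and wild type ran from 0 to 3.25. Cldn15, a tight junction protein, stood at 4.97, 7.25 and 9.29 and 2.70, 0.812 and 0.981 (1.75 ± 0.46), and Tspan14, a tetraspanin, at 18.3, 13.1 and 10.6 and 0, 5.32 and 2.88 (2.33 ± 0.60). The 4 genes were separated between EAP and EAP with ENU, but wild type libraries ran across both groups in Zmat5, Tspan14 and Cldn15. In Cldn15 they ran from 0 to 5.23.

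Bone stromal cells from mice given ENU at 100 mg/kg or mock treatment were deposited in a separate table, in TPM (transcript abundance scaled to the library), and their values stand here only beside those of LSK cells, with no test between the tables. There too 0 of 12089 genes passed (0%, limma), and 312 (2.58%) had an unadjusted p under 0.05. Hspa1b stood at 12.2, 19.3 and 9.10 TPM in ENU and 17.1, 15.6 and 10.4 TPM in mock, overlapping. Fos stood at 18.7, 9.17 and 88.3 TPM in ENU and 19.8, 12.96 and 181 TPM in mock, and replicate 3 was highest in both. Pf4 stood at 2.01, 15.9 and 0.256 TPM and 1.55, 15.1 and 0 TPM, and Rpl27a at 1339.6, 1376 and 873 TPM and 1347, 1263 and 941 TPM. None of these 4 genes was separated by ENU in stromal cells.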

How the data were processed

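RNA of sorted LSK cells was sequenced from stranded mRNA libraries; bcl2fastq, FastQC, TopHat, SAMtools and edgeR with build mm10 appear in the submitters' processing notes, and the counting program, annotation and scaling were not found in the sources used here. The LSK table deposited by the authors holds a normalised signal per gene; it is named CPM, yet the values of a library sum to between 808377 and 1437200, and they were taken as a signal of unknown scaling in place of the CPM assumed when the test was chosen. The stromal table deposited by the authors holds TPM.

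Values were tested as log2(value + 1) with limma 3.58.1 (lmFit, eBayes with trend) in a fit of all 12 LSK libraries, for genes with a value of at least 1 in at least 3 libraries, with Benjamini-Hochberg adjustment and a threshold of 0.05. The script was tested on simulated data. Shares were compared by an exact permutation test. Described genes were the engineered ones, the 15 of smallest p in each direction and up to 4 of smallest p per list, where either group's mean reached 5, leaving out predicted genes (some of these genes are not reported here); members named because their libraries did not overlap were chosen after their values were seen. The members and the 43 gene lists were chosen with earlier results of these data known. Lists were described by counts and medians, without a set test. Promoter windows are from RefSeq, GRCm38.p6, and 11151 of 11740 gene names matched RefSeq, 558 of them by synonym. The marrow libraries of diseased mice were not used here.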

Additional observations from a re-analysis of the deposited data

How the results depend on the processing

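No gene passed under any of the other pseudocount (0.1), filter, scaling, sample set or single-library settings. Leaving out EAP 1, WT 2 and transplanted WT 3 together, a choice made after seeing the data, gave 1 passing gene. This was Zmat5 (5.22, limma adjusted p = 0.0484), which is also the 1 named gene past the threshold there. The EAP libraries kept in that setting stood at 1.76e-06 and 3.84e-06 in Zmat5, and EAP 1, left out, at 9.78. The number of genes at an unadjusted p under 0.05, 617 as reported, ran from 250 (without ENU 2) to 1244 (without EAP 3) when 1 library was left out, with 1057 without EAP 1, 407 without EAP 2 and 296 without ENU 3. It was 1558 with a term for EAP 1, WT 2 and transplanted WT 3, 3081 without those 3, and 188 without EAP 1 and EAP 2, the last 3 settings chosen after seeing the data. The smallest adjusted p over all settings ran from 0.0484 to 0.992. Trp53 turned to -0.00367 after median-of-ratios rescaling, -0.27 without EAP 1, -0.40 without ENU 2, -0.21 with the term, -0.27 without the 3 libraries, -0.12 against EAP 3 alone and -0.0733 after quantile normalisation; Apc turned to 0.040 without EAP 3, and Mgmt to -0.38 without EAP 2 and -0.43 against EAP 3 alone. When 1 library was left out, Apc ran from -0.41 to 0.040, Trp53 from -0.40 to 0.24 and Mgmt from -0.38 to 0.82, and the difference in share from -0.002796 to 0.001853 percentage points for haemoglobin and from -0.1069 to 0.01351 for heat shock genes. The difference in share turned to 0.001853 percentage points for haemoglobin and 0.0003952 for heat shock genes without EAP 3, and to 0.01351 for heat shock genes without ENU 1. The causes were not tested. Replicate numbers were not treated as pairs in the main fit. The deviations of same-numbered EAP and ENU libraries from their group means correlated at -0.149, -0.170 and -0.018 across genes. With 3 libraries in each group, this cannot decide whether same-numbered libraries shared a batch or donor. With a replicate block 0 genes passed and 421 had an unadjusted p under 0.05, and no number's library correlated best with its own number. Depth limits cannot be given without counts.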

Other observations

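The genes of the deposited LSK table are not in alphabetical order, and the order follows how the ENU libraries differ from the other 9 LSK libraries. Across 11730 genes, which are not independent replicates, the row number correlated with the limma p of EAP with ENU against the other 9 libraries at Spearman's rho = 0.846, and with the p of EAP with ENU against EAP at 0.496. Of the first 200 rows, 199 had an unadjusted p under 0.05 in the first comparison and 134 in the second, against 697 (5.94%) and 617 (5.26%) of all genes. In the comparison against the other 9 libraries, which mixes 3 groups and in which ENU goes together with genotype and transplantation, 0 genes had an adjusted p under 0.05 (limma). The row order was used in no step of the tests.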
